A study of Mus musculus with 8 samples.

Results

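Kcnb2, a pore-forming gene of the Kv2 potassium channels, and 8 genes for silent subunits that join such channels were compared between mice with a gene trap in Scn2a, the gene of the sodium channel NaV1.2, and wild-type littermates. The silent genes were Kcnf1 (Kv5), Kcng1, Kcng2 and Kcng4 (Kv6), Kcns1, Kcns2 and Kcns3 (Kv9) and Kcnv1 (Kv8). These 9 genes of the 54446 in the deposited matrix were picked by family name, with HOM to WT differences in these same libraries already known, so counts over the 9 describe them and carry no test. The HOM group held 4 libraries from mice homozygous for the gene-trap allele of Scn2a (Scn2agt/gt), and the WT group held 4 libraries from wild-type littermates, all from heterozygous breeding pairs and of the strain given as C75BL6. Such an allele carries a cassette that breaks off the transcript of the gene it sits in. The series title calls the mice adult, and neither age, sex nor brain region is given by sample. Nothing in the labels says that each numbered sample is its own animal, and the p-values therefore refer to spread among these libraries, part of which may be technical.

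Kv2 channels carry delayed rectifier potassium current, which opens slowly with depolarization and limits repetitive firing in many central neurons. Silent subunits form no working channel by themselves. They assemble with Kv2 subunits into mixed tetramers, and in expression systems these open, inactivate or reach the membrane differently from channels of Kv2 subunits alone.

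RNA was counted per gene, without strand and, as far as nested genes show, over whole gene bodies, with 27993412 to 37538988 counts per library. Scn2a stood at 122, 147, 131 and 112 CPM (counts scaled to TMM-adjusted library size) in HOM replicates 1 to 4, against 477, 371, 477 and 415 CPM in WT replicates 1 to 4. HOM libraries thus held 29.4% of the WT level and the groups did not overlap (edgeR adjusted p = 1.16e-05 for a log2 fold change of -1.77 with SE 0.10). The labels name the cells neuron. Markers of glia were plentiful all the same, with the 9 oligodendrocyte genes summing to 3289 to 4021 CPM in HOM and 3835 to 5717 CPM in WT. The 12 choroid plexus markers summed to 19.3 to 236 CPM in HOM and 148 to 1725 CPM in WT, the top value being WT replicate 4. HOM replicate 4 held 2 counts over 4 Y-linked genes, whereas every other library held 4452 to 5984, so this library at least came from another animal than the other HOM libraries. By these counts it looks female and the rest male, so sex is not balanced between the genotypes. Sex was not a term in any fit. The fit without HOM replicate 4 held only libraries that look male.

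The silent genes are alike in coding length and smaller than Kcnb2. Positions and models are those of GENCODE M21 on GRCm38. Kcnb2 (chromosome 1, 15287254 to 15723750, plus strand) spans 436497 bp and codes over 2721 bp in 2 exons. The 8 silent genes code over 1431 to 1542 bp and span 4789 to 69709 bp. Their coding sequence lies in 1 exon in 3 of them (Kcnf1, Kcns2 and Kcns3), in 2 exons in 4 (Kcng1, Kcng2, Kcng4 and Kcns1) and in 3 exons in Kcnv1. Kcnv1 lies on chromosome 15 (45106284 to 45114920, minus strand), Kcng4 on chromosome 8 (119623854 to 119635680, minus) and Kcnf1 on chromosome 12 (17172100 to 17176888, minus). Kcng1 lies on chromosome 2 (168260117 to 168281736, minus), as does Kcns1 (164163619 to 164171113, minus), Kcns2 on chromosome 15 (34837355 to 34843407, plus) and Kcns3 on chromosome 12 (11090202 to 11151056, minus). No other annotated gene overlaps Kcnv1, Kcng4, Kcnf1, Kcng1, Kcns1 or Kcns2. Noncoding or predicted genes share 8.99% of the span of Kcng2, 0.855% of that of Kcnb2 and 0.792% of that of Kcns3.

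RefSeq promoter sequences (GRCm38.p6) were matched for 4 of the 9 genes. The 250 bases before the start are shown for Kcnf1 and Kcng4, which fell in HOM, and for Kcns1, which did not pass, each read on the gene's own strand. Capitals mark a GC box, searched as GGGCGG on both strands. The windows are chr12:17176889-17177138 for Kcnf1, chr8:119635681-119635930 for Kcng4 and chr2:164171114-164171363 for Kcns1.
Kcnf1: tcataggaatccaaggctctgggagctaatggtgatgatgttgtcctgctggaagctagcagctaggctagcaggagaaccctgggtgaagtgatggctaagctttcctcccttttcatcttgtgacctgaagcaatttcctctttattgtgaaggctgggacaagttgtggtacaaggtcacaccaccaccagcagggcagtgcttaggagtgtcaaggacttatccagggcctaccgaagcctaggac
Kcng4: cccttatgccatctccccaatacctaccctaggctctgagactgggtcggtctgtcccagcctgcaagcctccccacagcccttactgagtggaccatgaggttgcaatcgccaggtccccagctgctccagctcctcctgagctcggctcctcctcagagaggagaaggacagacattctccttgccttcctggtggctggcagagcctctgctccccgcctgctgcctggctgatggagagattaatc
Kcns1: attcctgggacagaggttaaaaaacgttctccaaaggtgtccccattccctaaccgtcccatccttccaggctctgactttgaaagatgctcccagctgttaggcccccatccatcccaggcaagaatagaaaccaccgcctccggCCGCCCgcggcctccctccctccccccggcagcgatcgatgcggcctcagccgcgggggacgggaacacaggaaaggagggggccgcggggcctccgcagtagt
The Kcns1 window held 1 GC box, and the Kcnf1 and Kcng4 windows held none. Of the windows of Kcns3, which are not shown, 1 held 2 GC boxes and the other held 1. Thus 3 of the 5 windows of the 4 genes held at least 1, both Kcns3 windows among them. Across all 32851 promoter windows of this length, 32.7% held at least 1. The letters TGACG (the core of a cAMP response element), TGACGTCA (the whole element), TGACTCA (AP-1), CACGTG (E-box) and GCGTGGGCG (Egr), on either strand, were in none of the 5 windows. They were in 17.8%, 1.55%, 4.46%, 6.02% and 0.536% of all windows. TGACG lies inside TGACGTCA, so those shares overlap.

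Per kb of exon, silent genes lay both above and below Kcnb2. Kcnf1 was highest of the 9 in all 8 libraries, at 26.8 ± 2.07 CPM per kb of exon in HOM and 32.2 ± 0.843 in WT (SD, n = 4 each). Kcnv1 came next in every library, at 14.5 ± 1.34 CPM per kb in HOM and 22.5 ± 2.18 in WT. Kcng1, at 7.99 ± 0.774 CPM per kb in HOM and 9.72 ± 0.279 in WT, and Kcns1, at 6.25 ± 0.449 in HOM and 7.22 ± 1.32 in WT, held ranks 3 and 4 in each library. The ranges of neighbours among these top 4 did not overlap within either genotype.

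Kcnb2 itself stood at 4.46 ± 0.622 CPM per kb of exon in HOM and 4.18 ± 0.669 in WT, and Kcns2 at 3.99 ± 0.461 in HOM and 5.09 ± 0.452 in WT. Kcnb2 was thus above Kcns2 by its HOM mean and below it by its WT mean, with ranges that overlapped in both genotypes. Kcng2 (2.90 ± 0.394 CPM per kb in HOM, 2.88 ± 0.214 in WT) and Kcns3 (1.96 ± 0.50 in HOM, 2.70 ± 0.148 in WT) also overlapped each other. Kcng4 was lowest per kb of exon in every library, at 1.04 ± 0.102 CPM per kb in HOM and 1.76 ± 0.351 in WT. This order depends on the length used, and nested genes point to counting over whole gene bodies. Per kb of gene span, Kcnf1 and Kcnv1 kept ranks 1 and 2 in every library, but Kcns2 held rank 3, Kcns1 rank 4, Kcng1 rank 5 and Kcng4 rank 6 in every library. Kcng4 was then no longer lowest, at 0.335 ± 0.0329 CPM per kb of span in HOM and 0.567 ± 0.113 in WT. Kcnb2 had rank 7 by its mean in both genotypes, ahead of Kcns3 and Kcng2, but its range overlapped those of both in each genotype.

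**Figure D1:**
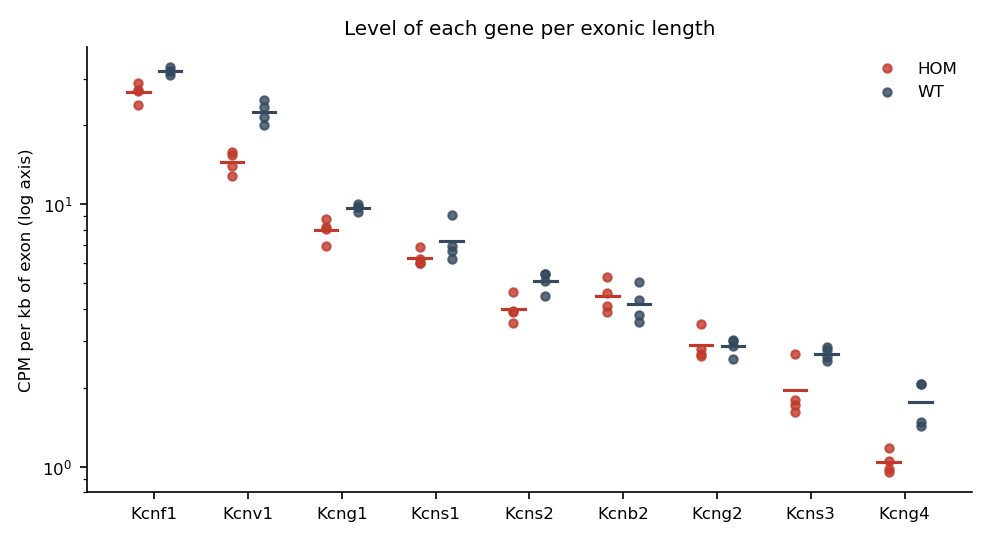
Level of the 9 genes as CPM per kb of exon (log axis) in HOM (red, left of each pair) and WT (grey, right). Points are libraries, 4 per genotype, and bars are means. Kcnf1 and Kcnv1 lead in both genotypes, and Kcng4 is lowest on this exonic scale, at 1.04 CPM per kb in HOM and 1.76 in WT.

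Kcnb2, the 1 pore-forming gene among the 9, did not pass the threshold. Further genes of these subfamilies are not used here, so a contrast of pore-forming with silent genes rests on Kcnb2 alone. Exons cover 15165 bp of the 436497 bp that Kcnb2 spans, and counts appear to cover gene bodies. How much of its CPM came from introns was not tested. Kcnb2 had 80.1, 69.7, 58.9 and 62.1 CPM in HOM replicates 1 to 4, against 77.0, 57.5, 65.2 and 54.1 CPM in WT replicates 1 to 4. The groups overlapped almost fully, and replicate 1 was the highest library in each. The log2 fold change was 0.09, with a 95% interval of -0.17 to 0.35 (edgeR quasi-likelihood test, adjusted p = 0.684). The interval allows a fall of 0.17 or a gain of 0.35 on the log2 scale, so equal levels are not shown.

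The threshold was passed by 3 of the 8 silent genes, each lower in HOM, and not by the other 5. At the same threshold of 0.05 on the Benjamini-Hochberg adjusted p of edgeR, 2.94% of all 17395 genes tested fell and 2.47% rose. With DESeq2, 6 silent genes were lower, as were 7.12% of all genes with an adjusted p. Nothing is read from the comparison of these shares, since the HOM to WT differences were known when the genes were picked. All 9 genes passed the filter on low counts. The median log2 fold change was -0.32 for the 8 silent genes, against 0.0013 for all genes tested. In bulk RNA, fewer cells of a type and less RNA per cell cannot be told apart.

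**Figure D2:**
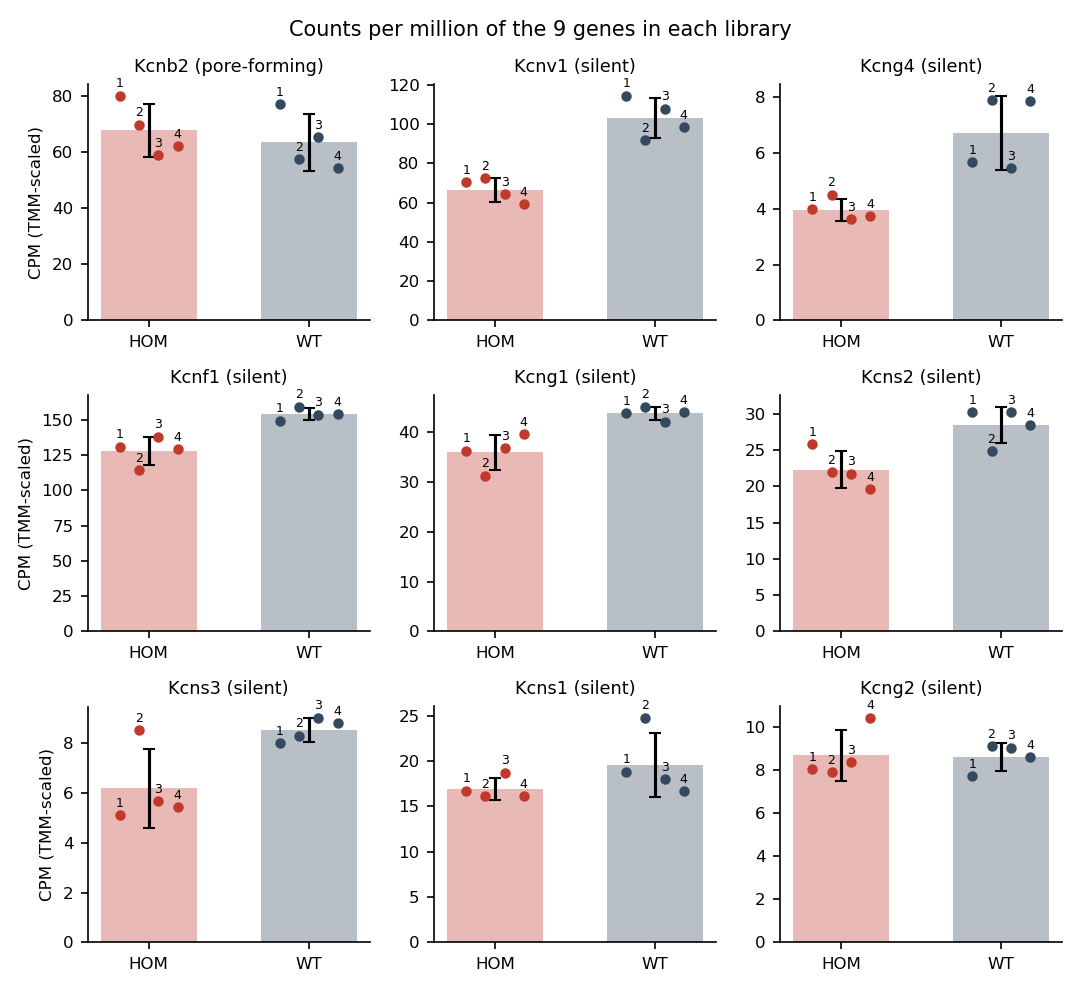
TMM-scaled CPM of each of the 9 genes in HOM (left) and WT (right). Points are libraries labelled by replicate number, bars are means and whiskers are SD (n = 4 each). Kcnv1, Kcng4, Kcnf1 and Kcng1 have every HOM library below every WT library, and Kcnb2 overlaps between genotypes.

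Kcnv1 encodes Kv8.1, a silent subunit of brain neurons that reduces or alters Kv2 current when expressed beside it in cultured cells. It stood at 70.5, 72.5, 64.2 and 59.0 CPM in HOM replicates 1 to 4, against 114, 91.7, 108 and 98.5 CPM in WT replicates 1 to 4. Every HOM library lay well below the lowest WT library. HOM libraries held 64.6% of the WT level (log2 fold change -0.63, SE 0.09, 95% interval -0.82 to -0.44, edgeR adjusted p = 0.00359). The call held with each library left out in turn, at log2 fold changes from -0.68 to -0.56. It was lost with the mean choroid plexus marker level as a covariate, at a log2 fold change of -0.64 (edgeR adjusted p = 0.0773).

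Kcng4 encodes Kv6.4, whose gene is used in mice as a marker of alpha-type retinal ganglion cells. It had the fewest reads of the 9, with 117 to 247 counts per library. It stood at 3.98, 4.50, 3.63 and 3.73 CPM in HOM replicates 1 to 4, against 5.65, 7.88, 5.44 and 7.83 CPM in WT replicates 1 to 4. The groups did not overlap, and WT replicates 2 and 4 were the high ones. HOM libraries held 59.1% of the WT level (log2 fold change -0.76, SE 0.15, 95% interval -1.10 to -0.43, edgeR adjusted p = 0.0198). The call was lost when HOM replicate 1 was left out (edgeR adjusted p = 0.0696), when HOM replicate 3 was left out (0.0783), without HOM and WT replicates 4 together (0.0839) and under the choroid plexus covariate (log2 fold change -0.59, adjusted p = 0.289).

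Kcnf1 encodes Kv5.1, the most abundant silent transcript here. It stood at 131, 115, 138 and 129 CPM in HOM replicates 1 to 4, against 149.6, 159, 154 and 154 CPM in WT replicates 1 to 4. The WT libraries lay close together, and HOM replicate 2 was the lowest of the 8. HOM libraries held 83.2% of the WT level (log2 fold change -0.26, SE 0.07, 95% interval -0.41 to -0.12, edgeR adjusted p = 0.0408). That call was the weakest of the 3: leaving out any 1 of the 8 libraries ended it, at edgeR adjusted p from 0.0651 to 0.111 and log2 fold changes from -0.29 to -0.20. Upper-quartile scaling (0.0627), no filter (0.0507), the removal of HOM and WT replicates 4 together (0.118) and the choroid plexus covariate (0.374) ended it as well.

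Among the 5 silent genes that did not pass, 4 had lower HOM means. Kcng1, a Kv6 gene, stood at 36.3, 31.3, 36.9 and 39.7 CPM in HOM replicates 1 to 4, against 43.9, 45.2, 42.1 and 44.1 CPM in WT replicates 1 to 4. These groups did not overlap, yet the edgeR adjusted p was 0.0554 (log2 fold change -0.28, SE 0.08). With it, 4 of the 9 genes had every HOM library below every WT library, as did 7.47% of all genes tested, and none had the reverse, as 6.63% of all genes did.

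Kcns2, a Kv9 gene, stood at 25.8, 21.9, 21.8 and 19.6 CPM in HOM replicates 1 to 4, against 30.2, 24.9, 30.3 and 28.4 CPM in WT replicates 1 to 4. HOM replicate 1 and WT replicate 2 made the groups overlap (log2 fold change -0.35, SE 0.10, edgeR adjusted p = 0.0550). Without WT replicate 2 the edgeR adjusted p was 0.0359, and every other single removal gave 0.0605 to 0.162. Kcns3, a Kv9 gene enriched in parvalbumin interneurons of primate cortex, stood at 5.12, 8.54, 5.67 and 5.42 CPM in HOM replicates 1 to 4. It stood at 8.00, 8.31, 9.03 and 8.82 CPM in WT replicates 1 to 4. Only HOM replicate 2 reached the WT range. The log2 fold change was -0.47 (SE 0.15, edgeR adjusted p = 0.0907). Without HOM replicate 2 it was -0.65 (adjusted p = 0.00900). Every other single removal gave an edgeR adjusted p from 0.113 to 0.257.

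Kcns1, a Kv9 gene studied in sensory neurons and in human pain, stood at 16.7, 16.2, 18.7 and 16.2 CPM in HOM replicates 1 to 4, against 18.8, 24.8, 17.98 and 16.7 CPM in WT replicates 1 to 4. The groups overlapped and WT replicate 2 was high (log2 fold change -0.21, 95% interval -0.46 to 0.05, edgeR adjusted p = 0.309). Kcng2, a Kv6 gene first known from human heart, stood at 8.02, 7.91, 8.37 and 10.4 CPM in HOM replicates 1 to 4, against 7.71, 9.10, 9.03 and 8.59 CPM in WT replicates 1 to 4. HOM replicate 4, the library that looks female, was the highest of the 8. The other HOM libraries lay inside the WT range (log2 fold change 0.02, 95% interval -0.23 to 0.26, edgeR adjusted p = 0.953).

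**Figure D3:**
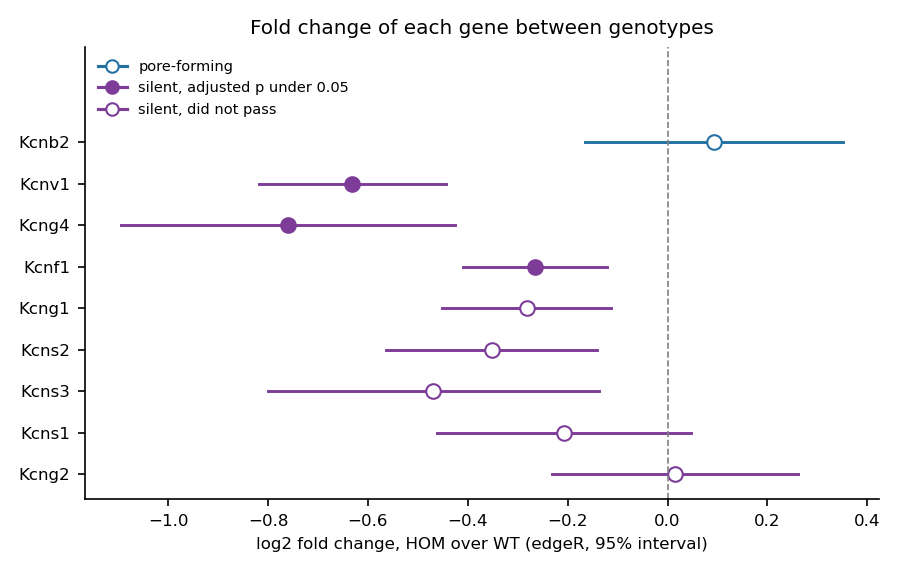
Log2 fold change, HOM over WT, of each gene with its 95% interval from the edgeR fit over all genes. Filled points passed an adjusted p of 0.05. Kcnb2 sits at 0.09, and Kcnv1, Kcng4 and Kcnf1 sit at -0.63, -0.76 and -0.26.

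Ratios within a library do not depend on how libraries are scaled. The ratios, sum and shares below use CPM not divided by gene length. They compare genotypes and do not give the relative abundance of different genes. Kcnv1 over Kcnb2 was 0.880, 1.04, 1.09 and 0.951 in HOM replicates 1 to 4, against 1.49, 1.60, 1.65 and 1.82 in WT replicates 1 to 4. The genotypes were apart for this ratio. Kcng4 over Kcnb2 was 0.0498 to 0.0645 in HOM and 0.0734 to 0.145 in WT, also apart. Kcnf1 over Kcnb2 overlapped, at 1.64 to 2.35 in HOM and 1.94 to 2.84 in WT. The CPM of the 8 silent genes together was 298, 277, 297 and 283 in HOM replicates 1 to 4, against 378, 371, 375 and 367 CPM in WT replicates 1 to 4. Kcnf1 and Kcnv1 made up 67.4% ± 0.681 of that sum in HOM and 69.0% ± 0.992 in WT (SD, n = 4 each). Divided by Kcnb2 alone, the sum was 3.72, 3.98, 5.05 and 4.57 in HOM replicates 1 to 4, against 4.91, 6.46, 5.76 and 6.78 in WT replicates 1 to 4. HOM replicate 3 and WT replicate 1 made this ratio overlap, Kcnb2 being high in WT replicate 1. No p is given for these ratios and sums, because the genes were picked with their differences known.

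Genes shaped like Kcnv1 over the 8 libraries were sought by the root mean square difference of log2 CPM, each gene centred on its own mean. Among 11295 protein-coding genes with a mean of at least 5 CPM, the closest 3 were Fbxo33 (0.0793), Stard8 (0.0819) and Rassf3 (0.0848). Fbxo33 averaged 45.2 ± 5.22 CPM in HOM and 64.8 ± 3.09 CPM in WT, Stard8 25.2 ± 2.92 in HOM and 39.9 ± 2.13 in WT, and Rassf3 41.3 ± 3.04 in HOM and 59.6 ± 3.28 in WT (SD, n = 4 each). Kcnv1 was used as the member of smallest p, and its HOM to WT difference is part of the shape matched. Within the family Kcns2 was the closest to Kcnv1, at rank 115 (0.158), and Kcns3 came at rank 612. Kcnf1, Kcng1, Kcng4 and Kcns1 came at ranks 1393, 1719, 1984 and 4401. Kcnb2 stood at rank 7035 and Kcng2 at rank 7770.

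Other voltage-gated potassium channel genes give the setting. Of 28 pore-forming genes outside Kv2, 25 were tested (median log2 fold change -0.07). Of these, 2 (8.0%) were lower and 23 did not pass, beside 2.94% lower and 2.47% higher over all genes. The 2 were the axonal Kv1 genes Kcna2, at 233 ± 31.6 CPM in HOM and 334 ± 30.0 CPM in WT, and Kcna1, at 57.0 ± 12.7 CPM in HOM and 85.6 ± 6.80 CPM in WT (SD, n = 4 each). Neither passed without HOM replicate 1, HOM replicate 3 or WT replicate 3, and 1 gene of the list was lower without HOM replicate 4 or WT replicate 1. None of the 28 is a silent subunit, and the difference between the lists was not tested.

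Most genes for proteins that bind, cluster or modify Kv2 channels did not pass. Of 21 tested, 15 did not pass, 3 fell and 3 rose (median log2 fold change 0.005), beside 2.94% lower and 2.47% higher over all genes. The calcineurin subunit gene Ppp3r1, part of the phosphatase that acts on Kv2 channels, fell to 68.7 ± 5.67 CPM in HOM, against 92.6 ± 4.90 CPM in WT. The SNARE gene Snap25 (log2 fold change -0.33) and the Cdk5 activator gene Cdk5r1 (-0.25) fell too. The L-type calcium channel genes Cacna1c (0.42) and Cacna1d (0.33) and the ryanodine receptor gene Ryr3 (0.45) rose, at edgeR adjusted p from 0.0323 to 0.0446. The genotypes overlapped for Cacna1d, at 163 to 199 CPM in HOM and 133 to 166 CPM in WT. They also overlapped for Ryr3, at 95.38 to 123 CPM in HOM and 68.1 to 95.75 CPM in WT, but not for Cacna1c. No gene of this list was higher without HOM replicate 1, HOM replicate 3, WT replicate 3 or WT replicate 4, and 1 was lower without HOM replicate 1, HOM replicate 3 or WT replicate 3.

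Of markers of the cells that could hold these transcripts, some lists separated the genotypes and others overlapped. No list was tested as such. Over all genes, 2.94% were called lower, 2.47% were called higher and 7.47% had every HOM library below every WT library. These shares are of single genes and give no background for summed CPM. The 12 interneuron markers summed to 1036 to 1124 CPM in HOM and 1154 to 1384 CPM in WT, without overlap, and 3 of the 11 tested fell. Dlx1 was at 0 in every library. The 12 excitatory neuron markers overlapped, at 2167 to 2351 CPM in HOM and 2212 to 2633 CPM in WT, with 2 lower. The 10 striatal projection neuron markers overlapped, at 633 to 912 CPM in HOM and 725 to 847 CPM in WT, with none called. Astrocyte markers summed to 4008 to 4928 CPM in HOM and 5011 to 5355 CPM in WT, with 1 of 9 lower. Endothelial markers summed to 169 to 209.9 CPM in HOM and 209.9 to 270 CPM in WT, meeting at their ends, with 3 of 8 lower. Microglial markers summed to 343 to 380.2 CPM in HOM and 299.99 to 352 CPM in WT, with 1 of 8 tested higher and P2ry12 at 0. Of 11 choroid plexus markers tested 4 fell, with Kcnj13 at 0. A marker at 0 is not read as absent from the tissue, since 98.5% of protein-coding genes nested in another gene stood at 0. The part of these cell types in the silent subunit values was not tested beyond the choroid plexus covariate, which shares much of its spread with genotype.

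**Figure D4:**
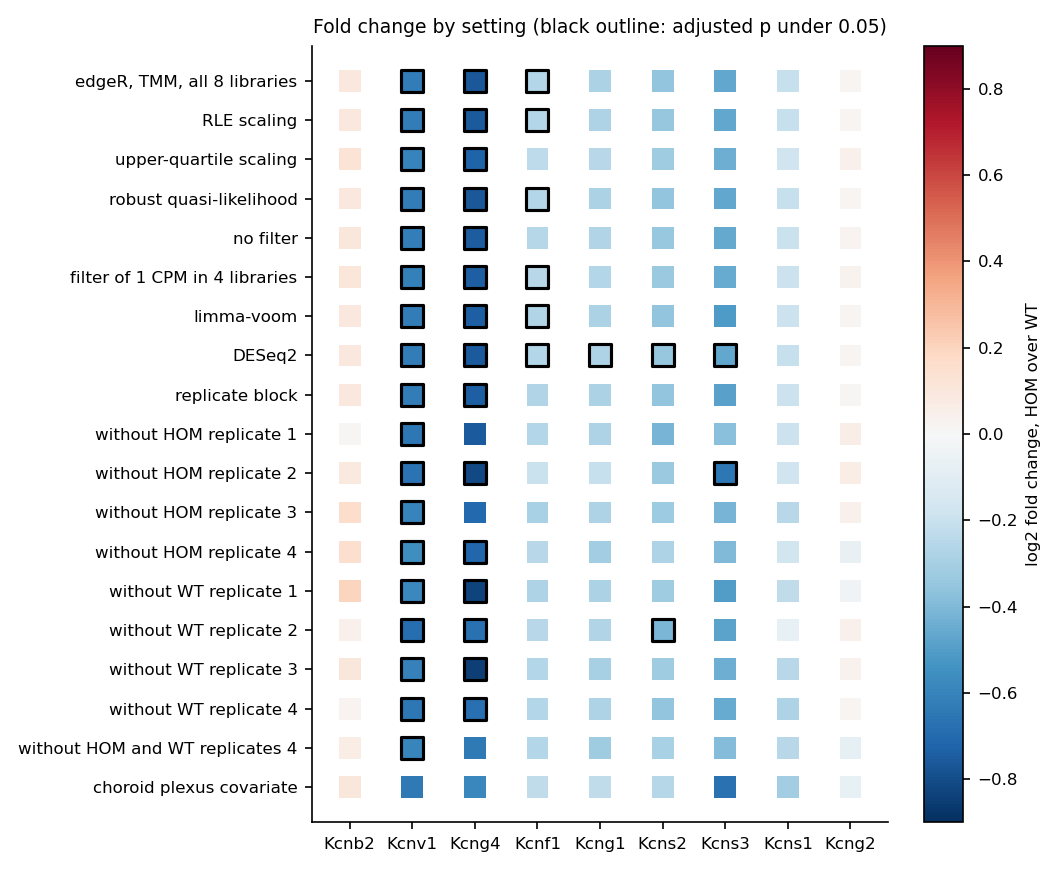
Log2 fold change, HOM over WT (colour), of the 9 genes under each setting, with black outlines where the adjusted p was under 0.05. Kcnv1 is outlined in every setting except the choroid plexus covariate, Kcnb2, Kcns1 and Kcng2 in none.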

How the data were processed

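Raw counts of reads per gene were deposited by the authors for 8 libraries and are not normalized. Per the labels' protocols, total RNA was made into stranded paired-end libraries. GRCm38, STAR, featureCounts, FastQC 0.11.3 and edgeR are named, per the submitters' processing notes. The sources used here give no other version and no strand setting. GENCODE M21 held 54409 of 54446 gene identifiers, the other 37 carrying 0.0143% of counts. Of 1280 protein-coding genes nested in another gene on either strand, 1261 stood at 0, against 13.5% of 20638 not nested, so counts appear to cover gene bodies without strand.

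The test was that of edgeR 4.0.16 under R 4.3.3 (glmQLFit, glmQLFTest, TMM, filterByExpr at its defaults), with Benjamini-Hochberg adjustment over 17395 genes and a threshold of 0.05. The 95% intervals are the SE times the t quantile at the fit's total degrees of freedom. The fit was checked on simulated counts. It recovered 68.0% of genes changed 1.5-fold and 85.3% of those changed 2-fold, and it called 12 unchanged genes. Smaller changes were not simulated. Precision is limited by 4 libraries per group and, for Kcng4, by 117 to 247 counts. No pair of libraries of a genotype agreed within sampling noise (lowest chi-square per degree of freedom 7.05). The 9 genes and the lists were chosen with earlier results of these data known. Named beyond them were Scn2a, list members past the threshold (at most 6 per list) the 3 genes closest to Kcnv1 and, chosen after their values were seen, the markers at 0 in every library. Alternatives were DESeq2 1.42.0, limma-voom (limma 3.58.1), other scalings and filters, robust fitting, a replicate block, a choroid plexus covariate and leaving out libraries. Protein comparisons were not made, and other Kv2-related genes are not reported here.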

Additional observations from a re-analysis of the deposited data

Results flagged for a closer look

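In HOM, the Kcns3 level of replicate 2, 8.54 CPM, stood apart from those of the other HOM libraries, at 5.12, 5.42 and 5.67 CPM. Its gap to the nearest of them was 0.838 of the group's range, above the 95% critical value of Dixon for 4 samples. This was the single such value in 20 groups examined, the number in which chance gives about 1. That library rested on 243 counts of Kcns3.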

How the results depend on the processing

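Kcnb2 and Kcns1 kept their direction and did not pass in any of 18 alternatives, at log2 fold changes from 0.01 to 0.20 for Kcnb2 and from -0.31 to -0.07 for Kcns1. Kcnv1 passed in 17, Kcng4 in 14, Kcnf1 in 5, Kcns2 and Kcns3 in 2 each and Kcng1 in 1, none changing direction. Kcng2 reversed to -0.073 with the choroid plexus covariate and -0.079 without HOM and WT replicates 4, ranged from -0.069 to 0.066 with 1 library left out, and never passed. With DESeq2 the lower silent genes were 6, against 3 with edgeR, beside 7.12% of all genes with an adjusted p; lower and higher other Kv genes were 4 and 1, and calls over all genes 1900, against 940. The covariate left 0 lower silent genes, 0 lower other Kv genes, 0 lower and 0 higher partners, and 41 calls over all genes. Without HOM and WT replicates 4, 1 silent gene (Kcnv1), 1 other Kv gene and 335 genes over all passed. With 1 library left out, lower silent genes numbered 1 to 3 (1 without HOM replicate 1 or 3), other Kv genes 0 to 2 lower and 0 to 1 higher, partners 1 to 3 lower and 0 to 3 higher, and all calls 180 to 1187 (the removal of HOM replicate 3 gave 180, of WT replicate 3 181, of HOM replicate 1 212, of WT replicate 4 482, of WT replicate 1 527 and of HOM replicate 4 552). The median of all genes moved by at most 0.03 with scaling. By gene span Kcnb2 ranked 7 in WT, against 6 by exon.

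With the replicate number as a block, 2 silent genes fell (Kcnv1 and Kcng4, Kcnf1 at adjusted p = 0.0959), 1 partner was lower and 364 genes passed over all. Same-numbered libraries did not deviate together (r from -0.20 to 0.05), and 0 of 4 HOM libraries lay closest to their own number, so the numbers are not taken as pairs. The causes of these changes were not tested.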
